A study of Aspergillus niger with 8 samples.

Results

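Aspergillus niger, a saprotrophic mould, carries several genes for enzymes that strip galactose and mannose from plant galactomannan. Described here are 4 of them, of 15431 genes counted: the α-galactosidase genes aglA (An06g00170), aglB (An02g11150) and aglC (An09g00260), and the β-mannosidase gene An12g01850. They were picked by their CBS 513.88 gene identifiers, with earlier results of these data known, and all 4 passed the filter on low counts. The study of these libraries had listed aglC as raised in both 6 h conditions, so its rise there may not be independent of that choice. The mycelium was of the laboratory strain N402 throughout, grown for 48 h on 1% glucose. It was harvested there, or washed and moved for 6 h to medium with 1% ball-milled wheat straw, for 6 h to medium with no carbon source, or for 24 h to medium with no carbon source. The glucose cultures were not washed or moved. Against glucose, carbon source, transfer and time in culture therefore cannot be told apart. Straw at 6 h and starvation at 24 h differed in both carbon source and time. Each condition had 2 shake-flask cultures, A and B, so p-values measure the spread between such flasks of 1 strain.

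Galactomannan is a chain of β-linked mannose units carrying single galactose units joined by α-bonds. α-Galactosidases release that galactose, and also cleave raffinose and related sugars of seeds and leaves, while endo-mannanases cut the chain and β-mannosidases take mannose from the ends of the pieces. In A. niger the products of aglA and aglB belong to one glycoside hydrolase family and that of aglC to another.

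Libraries held 14635638 to 32040412 reads, of which 205778 to 979256 were counted on genes, a share of 1.41% to 3.40%. RPKM, the reads per kilobase of gene model and scaled to library size as deposited, divides by all reads of the library, so it moves with that share. In straw A the share was 1.97% and in straw B 3.40%. The counts of 6357 genes were therefore tested as well, scaled to reads on genes, by the quasi-likelihood test of edgeR, and every adjusted p below comes from that test with the Benjamini-Hochberg adjustment over those genes. Calls, higher or lower, needed an adjusted p below 0.05 and also means that differed at least 3-fold in RPKM. The split of called genes depended on that ratio: at 6 h of starvation against glucose 595 were higher and 951 lower, against 951 and 736 with the ratio taken from edgeR's estimate. As a check of the labels, the endoxylanase gene xynA was at 129 and 113 RPKM on straw and at most 0.645 elsewhere, and the conidiation regulator gene brlA at 1.75 and 0.481 RPKM at 24 h of starvation and at most 0.195 elsewhere.

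A different α-galactosidase gene led in different conditions. By mean RPKM, aglB was highest of the 4 on glucose, aglC in both 6 h conditions and aglA at 24 h of starvation, while An12g01850 stayed between 0.711 and 3.95 RPKM in all 8 libraries.

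**Figure D1:**
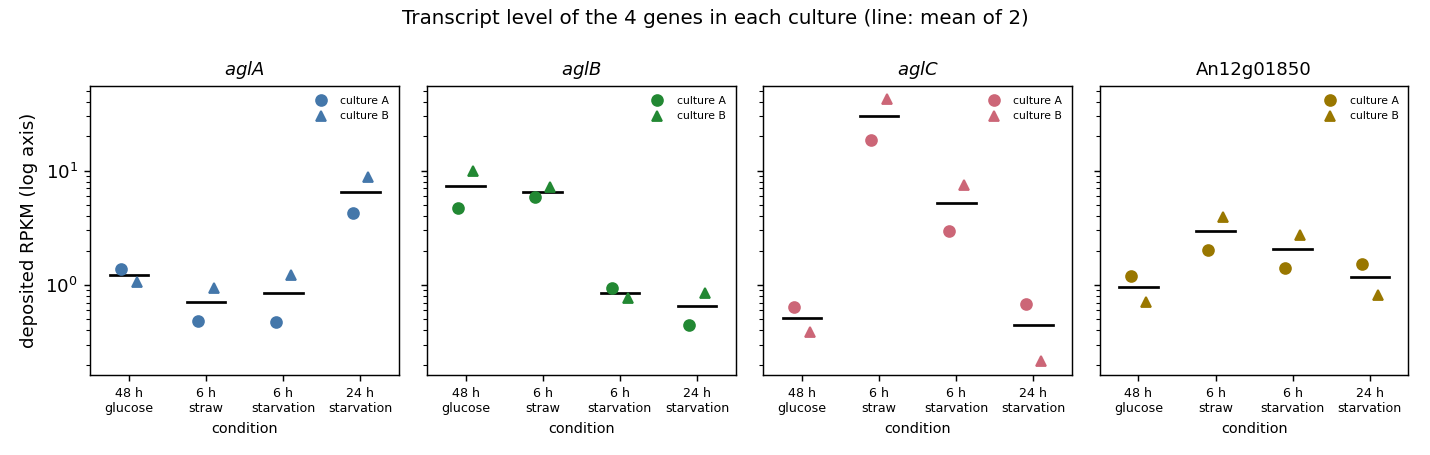
Deposited RPKM (log axis) of aglA, aglB, aglC and An12g01850 in each culture of the 4 conditions, with circles for culture A, triangles for culture B and a line at the mean of the 2. aglC stands at 18.7 and 42.3 RPKM on straw and at 0.213 to 0.682 on glucose and at 24 h of starvation, whereas aglA is highest at 24 h of starvation and aglB on glucose and straw.

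The gene aglC had the widest range. On glucose it gave 0.646 RPKM in culture A and 0.387 in B, from 31 and 22 reads. After 6 h of straw it gave 18.7 and 42.3 RPKM, from 960 and 2738 reads. Both straw cultures lay far above both glucose cultures, and they put aglC at rank 97 and 79 among the genes of their libraries, against 4331 and 5414 on glucose. Straw B was 2.26 times straw A by RPKM and 1.31 times by RPKM per reads on genes (1246 against 949). The means were 30.5 ± 16.7 RPKM on straw and 0.517 ± 0.183 on glucose (SD, n = 2), a ratio of 59.1, and edgeR's log2 fold change was 6.02 (SE 0.55, adjusted p = 1.39e-07). By that estimate aglC ranked 96 from the highest of 6357 genes.

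Without any carbon source aglC was also higher, but for a limited time. At 6 h of starvation it gave 2.96 RPKM in A and 7.45 in B, from 213 and 335 reads, and at 24 h 0.682 and 0.213 RPKM, from 24 and 7 reads. The 6 h cultures did not overlap with glucose or with 24 h, and the 24 h cultures overlapped with glucose. Against glucose the 6 h mean of 5.21 ± 3.18 RPKM was 10.1-fold higher (log2 fold change 4.24, SE 0.51, edgeR adjusted p = 3.98e-06). From 6 h to 24 h of starvation aglC fell by 3.92 on the log2 scale (SE 0.52, edgeR adjusted p = 8.33e-05), an 11.6-fold difference in mean RPKM, and at 24 h its log2 fold change against glucose was 0.33 (SE 0.53, edgeR adjusted p = 0.673). In mycelium sampled in bulk, fewer cells using a gene and less transcript per cell cannot be told apart.

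Straw and starvation at the same 6 h could be compared directly. Both straw cultures exceeded both starvation cultures in aglC, by 5.86-fold in the mean RPKM and by 1.78 on the log2 scale of edgeR (SE 0.45, adjusted p = 0.00870). That call rested on single libraries: without straw B the log2 difference was 1.57 (edgeR adjusted p = 0.0861) and without 6 h starvation A it was 1.37 (edgeR adjusted p = 0.112). Against 24 h of starvation, straw was 68.2-fold higher in aglC (log2 fold change 5.70, SE 0.55, edgeR adjusted p = 6.12e-07). In order of mean RPKM the conditions ran straw, 6 h starvation, glucose and 24 h starvation for aglC, and the last 2 did not differ beyond the spread of their cultures.

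The pattern of aglB was another one: it was present on glucose and on straw and low in both starvation conditions. On glucose it gave 4.71 and 9.98 RPKM in cultures A and B, from 145 and 364 reads, and on straw 5.90 and 7.25, from 194 and 301 reads. At 6 h of starvation it gave 0.932 and 0.763 RPKM, from 43 and 22 reads, and at 24 h 0.443 and 0.854, from 10 and 18 reads. All 4 cultures with glucose or straw lay above all 4 without a carbon source, the straw values fell between those of the 2 glucose cultures, and the 2 starvation times overlapped.

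Against glucose aglB was 8.67-fold lower in mean RPKM at 6 h of starvation (log2 fold change −2.11, SE 0.49, edgeR adjusted p = 0.00242) and 11.3-fold lower at 24 h (log2 fold change −2.87, SE 0.53, edgeR adjusted p = 0.000307). Per reads on genes the fall was smaller than in RPKM. On that scale the mean was 246 ± 124 on glucose, 53.0 ± 14.6 at 6 h and 41.2 ± 27.6 at 24 h of starvation (SD, n = 2). The glucose cultures differed 2.12-fold from each other, and without glucose B the 6 h value was −1.45 with an adjusted p of 0.0565 (edgeR), so that it was no longer called. Straw against glucose gave a log2 fold change of 0.08 (SE 0.45, edgeR adjusted p = 0.928). Straw was 7.76-fold higher than 6 h starvation (log2 fold change 2.19, SE 0.49, edgeR adjusted p = 0.00396) and 10.1-fold higher than 24 h starvation (2.94, SE 0.53, edgeR adjusted p = 0.000349). The level at 24 h against that at 6 h of starvation gave −0.76 (SE 0.55, edgeR adjusted p = 0.523).

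The gene aglA was highest late in starvation. It gave 1.37 and 1.06 RPKM on glucose in cultures A and B (48 and 44 reads), 0.481 and 0.932 on straw (18 and 44 reads) and 0.476 and 1.22 at 6 h of starvation (25 and 40 reads). At 24 h of starvation it gave 4.25 and 8.84 RPKM, from 109 and 212 reads. Both 24 h cultures lay above all 6 other libraries, and among those 6 the 6 h starvation cultures overlapped with glucose and, in RPKM, with straw. Per reads on genes the straw cultures, at 24.4 and 27.4, lay below the 6 h starvation cultures, at 32.4 and 68.1.

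The 24 h mean of aglA, 6.54 ± 3.25 RPKM, was 5.38-fold that on glucose (log2 fold change 3.14, SE 0.50, edgeR adjusted p = 7.77e-05), 7.72-fold that at 6 h of starvation (2.76, SE 0.51, edgeR adjusted p = 0.00143) and 9.26-fold that on straw (straw against 24 h starvation −3.74, SE 0.52, edgeR adjusted p = 2.55e-05). With 1 of the libraries left out in turn, the log2 fold change of 24 h against glucose ran from 2.13 to 3.70 and remained called each time. Neither 6 h condition was called against glucose: straw gave −0.60 (SE 0.51, edgeR adjusted p = 0.432) and starvation 0.38 (SE 0.51, edgeR adjusted p = 0.598). The 24 h libraries in which aglA was highest were also those with the most brlA reads, 35 in A and 9 in B, though culture B held more aglA and fewer brlA reads than culture A. Culture A of 6 h starvation held 8 brlA reads, close to the 9. The brlA level at 24 h against 6 h of starvation was not called (log2 fold change 2.55, edgeR adjusted p = 0.0541). The part of conidiation in the level of aglA was not tested.

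The β-mannosidase gene An12g01850 moved least. It gave 1.20 and 0.711 RPKM on glucose (67 and 47 reads), 2.01 and 3.95 on straw (120 and 297 reads), 1.41 and 2.74 at 6 h of starvation (118 and 143 reads) and 1.52 and 0.812 at 24 h (62 and 31 reads). Both cultures of each 6 h condition lay above both glucose cultures, straw and 6 h starvation overlapped, and in RPKM 24 h starvation overlapped with glucose and with 6 h starvation. Per reads on genes the 24 h cultures, at 74.2 and 57.7, lay above both glucose cultures, at 40.4 and 23.7, and below both 6 h starvation cultures, at 95.9 and 153.

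Straw against glucose was the 1 comparison in which An12g01850 was called, at a 3.12-fold higher mean RPKM (log2 fold change 1.81, SE 0.40, edgeR adjusted p = 0.00182). That ratio is close to the threshold of 3. The call was lost without straw B (log2 fold change 1.71, edgeR adjusted p = 0.0168, ratio under 3) and without glucose B (1.49, edgeR adjusted p = 0.0546). At 6 h of starvation the log2 fold change was 2.05 (SE 0.40, edgeR adjusted p = 0.000640), but the ratio of mean RPKM was 2.17 and the gene was not called. Per reads on genes its mean there was 124 ± 40.3 against 32.1 ± 11.8 on glucose (SD, n = 2), and on that scale it was called. Straw against 6 h starvation gave −0.24 (SE 0.38, edgeR adjusted p = 0.741), 24 h against 6 h of starvation −1.21 (SE 0.40, edgeR adjusted p = 0.0744), and 24 h starvation against glucose 0.84 (SE 0.41, edgeR adjusted p = 0.119). Straw exceeded 24 h starvation by 0.97 (SE 0.40, edgeR adjusted p = 0.0846), with no overlap of cultures and no call.

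**Figure D2:**
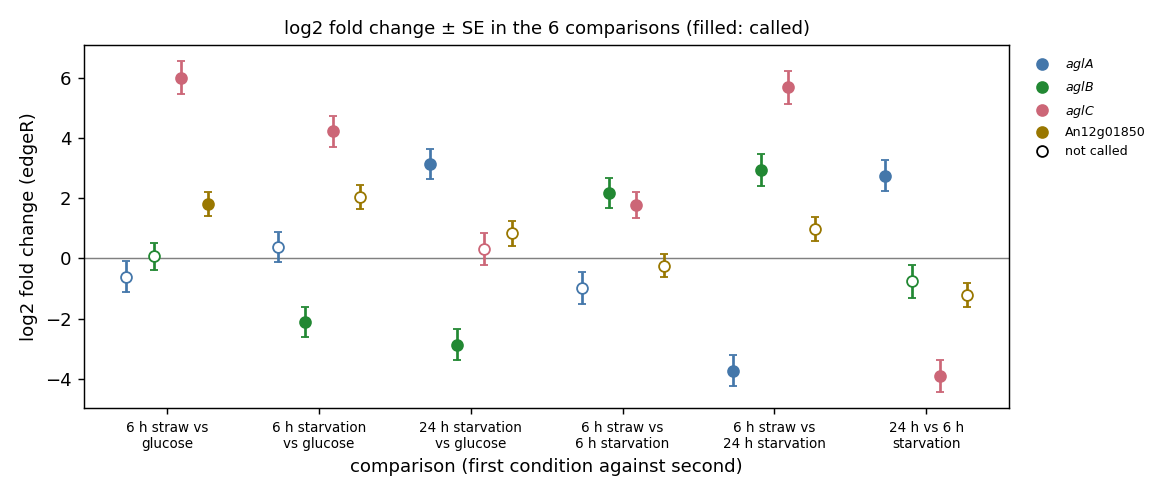
log2 fold change from edgeR with its standard error for the 4 genes in the 6 comparisons between conditions. Filled points passed both the adjusted p and the RPKM ratio, open points did not, and aglC reaches 6.02 for straw against glucose while aglB stands at −2.87 for 24 h starvation against glucose.

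Counted by comparison, 2 of the 4 genes were called on straw against glucose, aglC and An12g01850, both higher, where 22.1% of all tested genes were called (10.8% higher, 11.2% lower). At 6 h of starvation 2 were called, aglC higher and aglB lower (24.3% of all genes, 9.36% higher and 15.0% lower), and at 24 h 2, aglA higher and aglB lower (30.3%, 12.8% higher and 17.5% lower). Between the starvation times aglA was higher and aglC lower at 24 h (2 of 4, against 7.06% of all genes, 3.93% higher and 3.13% lower). Straw against 6 h starvation gave aglB and aglC higher (2 of 4, against 12.4%, 7.27% higher and 5.13% lower), and straw against 24 h starvation gave aglB and aglC higher and aglA lower (3 of 4, against 22.0%, 12.5% higher and 9.50% lower). Comparisons that share libraries are not independent of each other, so these counts are not added up. The median log2 fold change over all tested genes lay between −0.08 and 0.09 in the 6 comparisons.

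Within a library the share of each gene in the summed RPKM of the 4 is free of the library's scaling. On glucose aglB took 59.4% in culture A and 82.2% in B. On straw aglC took 69.1% and 77.7%, and at 6 h of starvation 51.2% and 61.2%. At 24 h of starvation aglA took 61.6% and 82.5%. The leading gene was thus the same in both cultures of every condition. The share of An12g01850 was largest at 6 h of starvation, with 24.4% and 22.5%. At 24 h of starvation it was 22.0% in A, close to these, and 7.57% in B, and on glucose 15.2% and 5.86%.

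The summed level of the 4 genes was 40.8 ± 19.4 RPKM on straw, against 10.0 ± 2.97 on glucose, 8.98 ± 4.52 at 6 h and 8.80 ± 2.71 at 24 h of starvation (SD, n = 2). The last 3 differed by less than the spread between their cultures, although another gene made up most of the sum in each. Their order depended on the scale: per reads on genes the sum was 336 ± 98.0 on glucose, 536 ± 203 at 6 h and 550 ± 301 at 24 h of starvation, again with overlapping cultures, and 1489 ± 162 on straw.

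**Figure D3:**
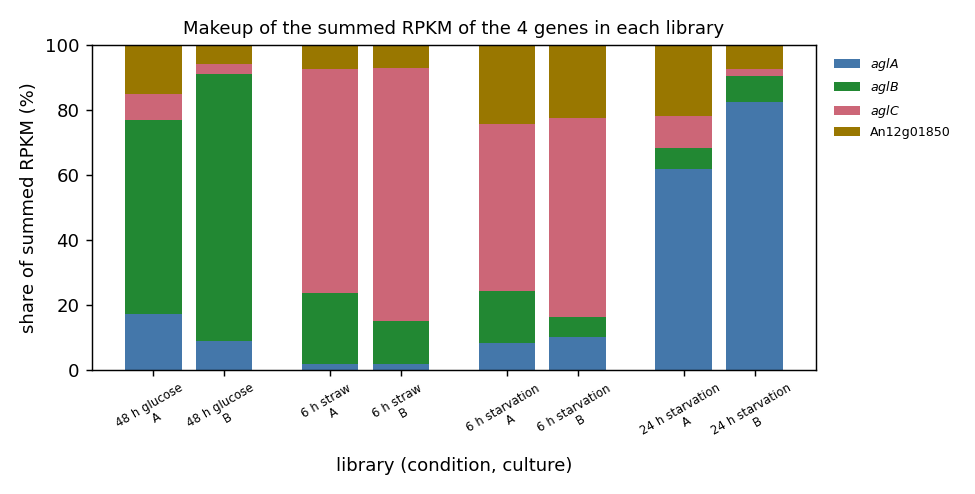
Share of each gene in the summed RPKM of the 4 genes (percent, bars from 0), 1 bar per library. aglB takes 59.4% and 82.2% on glucose, aglC 51.2% to 77.7% in the 6 h conditions, and aglA 61.6% and 82.5% at 24 h of starvation.

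Over the 8 libraries the log2 scaled counts of aglC and An12g01850 had a Pearson r of 0.87, the highest of the 6 pairs, and those of aglA and aglB one of −0.70. The other pairs lay between −0.58 and 0.24. These are descriptions over 8 libraries that fall into 4 conditions and share those conditions and their depth.

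Of 3808 genes with enough reads, those most like each member over the 8 libraries were found in the same way. Since they were picked as the highest of 3808, a high r is owed to that choice, and r does not compare the size of changes. For aglC the closest was An12g08280, an exo-inulinase gene, whose product releases fructose from inulin and sucrose (r = 0.98). Its mean was 0.00586 RPKM on glucose, 10.9 on straw and, in starvation, 0.411 at 6 h and 0.0190 at 24 h. Next came An01g09260 and An01g05835 (r = 0.97 and 0.96). For aglA the closest were An12g04710, An08g10440 and An05g01730 (r = 0.99, 0.98 and 0.96). An12g04710 was at 1.08 RPKM at 24 h of starvation and 0.519 on glucose, and An05g01730 at 59.2 and 0.251. For aglB they were An16g01820, An08g02260 and An07g03570 (r = 0.98, 0.97 and 0.96), and for An12g01850 An02g04350, An08g10110 and An03g01750 (r = 0.97, 0.96 and 0.96).

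The genes that flank the members in CBS 513.88 were looked up, 3 on each side, and few had enough reads to be tested: 3 around aglA, 2 around aglB, 1 around aglC and 2 around An12g01850. An06g00180, next to aglA, was at 14.5 and 3.04 RPKM at 24 h of starvation, from 92 and 18 reads, and at most 0.781 elsewhere. It was called higher at 24 h against glucose (log2 fold change 4.80, edgeR adjusted p = 9.36e-05) and against 6 h (4.36, edgeR adjusted p = 0.00180), as aglA was. Between the 24 h cultures the genes went opposite ways: An06g00180 was higher in A, and aglA, at 4.25 and 8.84 RPKM, in B. The other tested genes beside aglA were lower at 24 h than on glucose, An06g00190 by a log2 fold change of −1.96 (edgeR adjusted p = 0.0406) and An06g00200 of −3.70 (edgeR adjusted p = 0.00737). At 24 h An06g00190 had 6 reads in A and 67 in B, and An06g00200 had 0 and 3. Both were also called lower on straw against glucose (log2 fold change −2.80 and −8.18). At 6 h of starvation An06g00190 was called lower (−3.56) and An06g00200 was not called (−1.87). An12g01870, near An12g01850, was at 10.1 and 15.9 RPKM on straw, 5.44 and 7.57 at 6 h of starvation, 2.43 and 2.05 on glucose and 0.847 and 0.908 at 24 h of starvation, and was called higher on straw against glucose (2.74, edgeR adjusted p = 3.11e-05). An02g11180, near aglB, went the other way from it, from 0.0568 and 0.192 RPKM on glucose to 18.7 and 16.5 at 24 h of starvation. Whether reads were counted by strand is not given in the sources used here.

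A list of 15 further genes of galactomannan, galactoside and galactose breakdown was counted beside the members. They were drawn from the study's own annotation, but for the added β-mannosidase gene mndA. The list had 9 genes with enough reads, and 8 of those 9 were called higher on straw against glucose, with none lower (10.8% of all tested genes were higher). The median of the 9 was 3.17 on the log2 scale, beside 0.01 over all tested genes. Among the 8 were xyrA (log2 fold change 8.09) and An01g10920 (4.76), which are annotated as D-xylose reductase and L-arabitol dehydrogenase genes. The count is therefore not one of galactose breakdown alone. At 6 h of starvation 4 of the 9 were higher (9.36% of all genes), and at 24 h 1 was (12.8%), the L-arabitol dehydrogenase gene An01g10920. Since the study chose many of these genes on these libraries, the counts are not independent evidence of a direction.

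Of the galactoside genes, lacA, lacB, lacC and galA were, like aglC, called higher in both 6 h conditions against glucose and lower at 24 h than at 6 h of starvation. The β-galactosidase gene lacA rose 187-fold on straw (45.3 ± 12.3 RPKM against 0.242 ± 0.0479 on glucose, log2 fold change 7.74, edgeR adjusted p = 1.02e-07) and 48.4-fold at 6 h of starvation. From 6 h to 24 h of starvation 4 of the 9 genes fell (3.13% of all genes were lower): lacA, lacB and lacC, all β-galactosidase genes, and the endo-galactanase gene galA, with log2 fold changes of −4.84 for lacC to −3.44 for galA. On straw against 6 h starvation 3 were higher (7.27% of all genes), namely the D-xylose reductase gene xyrA (log2 fold change 7.02), the β-galactosidase gene lacE (4.68) and An01g10920 (2.36), and on straw against 24 h starvation 7 were (12.5% of all genes). The difference between any of these genes and aglC was not tested.

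The galactomannan genes of the list had few reads. The endo-mannanase gene man5A had 18 reads on glucose, 5 on straw and 7 at each time of starvation, summed over both cultures, or 0.321 ± 0.224, 0.0832 ± 0.0102, 0.111 ± 0.0345 and 0.196 ± 0.193 RPKM. It did not have enough reads to be tested. The β-mannosidase gene mndA gave 0.264 ± 0.0183 RPKM on glucose and 0.476 ± 0.137 on straw, and was called in 1 comparison, with a mean on straw 9.04-fold that of late starvation, at 24 h (log2 fold change 2.77, edgeR adjusted p = 0.0153). The 24 h level in that ratio, 0.0527 ± 0.0745 RPKM, rested on 4 reads in culture A and 0 in B. Another α-galactosidase gene, An01g01320, had 13 reads on straw, 4 at 6 h of starvation and none on glucose or at 24 h. With 3 counts set over the 2 glucose cultures as the floor, it was 3.92-fold higher on straw per library reads. That value takes the 13 straw reads as exact and leaves out the spread between cultures, so it is not a lower limit. The β-mannosidase gene An01g06630 had 1 read in all 8 libraries, so neither was tested and a level below that cannot be told from 0 at this depth.

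**Figure D4:**
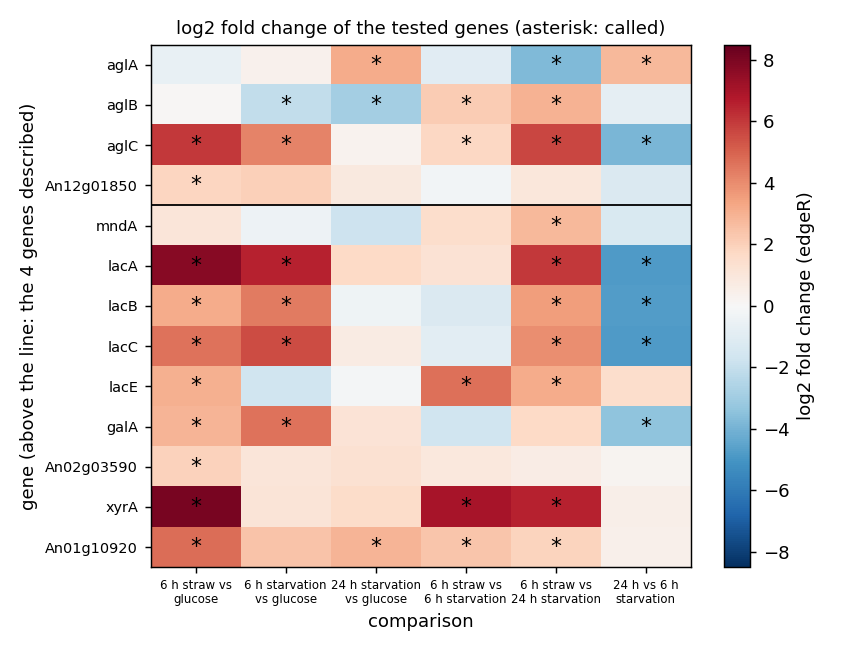
log2 fold change from edgeR (colour) of the 4 genes, above the line, and of the 9 tested genes of the list, below it, in the 6 comparisons. An asterisk marks a called gene, and lacA and xyrA show the highest values on straw against glucose, with aglC at 6.02.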

How the data were processed

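RNA of 8 mycelial cultures was sequenced on a SOLiD instrument after removal of rRNA. The authors mapped the reads with LifeScope, and the deposited counts are uniquely aligned forward reads per gene model, made with HTSeq. The deposited RPKM was computed by the authors from those counts and divides by all reads of a library, with 96.6 to 98.6% of them counted for no gene. Reads not uniquely aligned made up 58.4 to 71.7% of all reads. Rows naming no gene were left out of the tests.

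Tests ran in R 4.3.3 with edgeR 4.0.16, using filterByExpr, TMM factors (0.896 to 1.157), the quasi-likelihood test over the 8 libraries (4 residual degrees of freedom, common dispersion 0.0889) and Benjamini-Hochberg adjustment over 6357 genes. A call needed an adjusted p below 0.05 and an RPKM ratio of 3. The fold values are RPKM ratios, the log2 values edgeR's.

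The members and the 15 listed genes were chosen with earlier results of these data known. The named genes were the 4 members, up to 4 called list members a comparison, man5A, An01g01320, and the 3 genes most like each member (prior count 2, at least 20 reads a library on average). Gene order and the symbols came from RefSeq's table of strain CBS 513.88. Neighbouring genes were added after their values could be seen.

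Alternatives were DESeq2 1.42.0, RLE factors, no TMM factors, no low-count filter, other fold rules, only the conditions compared, the replicate letter as a block, and each library left out. The pipeline was tested on simulated data. The 24 h straw libraries were not analysed here.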

Additional observations from a re-analysis of the deposited data

Results flagged for a closer look

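The difference between starvation and glucose was not the same at the 2 times of starvation in a pair of the genes, by the direct test of 24 h against 6 h. For aglA the log2 difference was 2.76 (SE 0.51, edgeR adjusted p = 0.00143), with both 24 h cultures above both 6 h cultures. For aglC it was −3.92 (SE 0.52, edgeR adjusted p = 8.33e-05), with both 24 h cultures below both 6 h cultures.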

How the results depend on the processing

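Of the 24 values of a member in a comparison, 13 were called. The other fold rules each took called members at 6 h of starvation from 2 to 3, adding An12g01850. Other comparisons kept their counts. The 6 other fits (DESeq2, RLE, no TMM, no low-count filter, only the conditions compared, replicate block) reused the RPKM ratios. Only the adjusted p could thus move a call, and all 144 values kept direction and call. With each of the 8 libraries left out, 181 of 192 did, 5 lost a call and 6, none of them called, changed sign, with the cause not tested. Leaving out 1 library gave 1 to 2 members called on straw against glucose, 1 to 2 at 6 h of starvation and 1 to 2 on straw against 6 h starvation. The log2 fold change then ran from 1.49 to 2.15 for An12g01850 on straw against glucose, from −2.62 to −1.45 for aglB at 6 h of starvation and from 1.37 to 2.34 for aglC on straw against 6 h starvation. The values that changed sign ran from −0.43 to 0.74 for aglB on straw against glucose, from −0.18 to 0.81 for aglA at 6 h of starvation, from −0.43 to 0.73 for aglC at 24 h of starvation and from −0.52 to 0.086 for An12g01850 on straw against 6 h starvation.

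Letters A and B could not be shown to pair the cultures: the deviations of A from B correlated between conditions with r from −0.07 to 0.28. With the replicate block 2 members were called at 6 h of straw, as without it, and genes higher there went from 688 to 699.

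The all-gene counts moved more. Higher genes at 6 h of starvation were 595, and 951, 1177 and 908 when the fold was edgeR's, when only the adjusted p counted, and with RPKM per reads on genes. For straw against 6 h starvation, 326 lower genes became 578 on the adjusted p alone. With the fold on edgeR's estimate, higher and lower genes went from 813 and 1112 to 998 and 868 at 24 h against glucose, and from 462 and 326 to 385 and 484 for straw against 6 h starvation. With RPKM per reads on genes, those of straw against 24 h starvation went from 794 and 604 to 582 and 746. Without 24 h starvation A, lower genes at 24 h against glucose were 708, those higher and lower against 6 h were 155 and 123 in place of 250 and 199, and higher genes on straw against 24 h were 458. Without 24 h starvation B, 161 were higher against 6 h. Without straw B, higher genes on straw were 253 against 6 h and 518 against 24 h. Without 6 h starvation A, 621 in place of 951 were lower at 6 h, and 299 higher on straw against 6 h. Values under 20 reads, such as the 7 of aglC in 24 h starvation B, carry most counting error.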
